A study of Mus musculus with 2 samples.

Results

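The genes described here build the junctions between epithelial cells of the mouse pancreas. They are 10 of the 43346 genes in the deposited tables, picked by name, with no measured value in the rule: the connexin genes Gjb1, Gjb2, Gja1 and Gjd2, the claudin genes Cldn1, Cldn2, Cldn3 and Cldn10, the occludin gene Ocln, and Tjp1, which encodes the scaffold protein ZO-1. All 10 were found in the tables of both libraries. The list was drawn up with earlier results of these data known. The libraries hold polyadenylated RNA of whole pancreas from 1 female C57BL/6J mouse, an adult aged 10 weeks, and the labels name no treatment. They are technical replicate 2, which per the labels was not among the data first published, and technical replicate 1. Both come from 1 biological sample, so no comparison of conditions exists, every SD below is technical, and every test compares these libraries only.

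Gap junctions are clusters of channels through which ions and small molecules pass directly from cell to cell. Each channel is built from connexins of both neighbours, and the connexin type sets what may pass. Acinar cells, which make the digestive enzymes, are coupled mainly by the connexins Cx32 and Cx26, the products of Gjb1 and Gjb2, while insulin-secreting beta cells of the islets are coupled by Cx36, the product of Gjd2. Tight junctions seal the space between epithelial cells near the lumen: claudins form the strands and decide which ions leak through, occludin sits in the same strands, and ZO-1 ties the strands to actin.

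The 4 connexins share a loop by which a channel docks onto its partner in the neighbouring cell. The coding bases of part of that loop are shown as a feature common to acinar and islet connexins. The sequences are those of the GENCODE M21 transcripts on GRCm38, 5′ to 3′ on the coding strand, with the codons of the 3 cysteines of the first extracellular loop in capitals. Each stretch is 36 coding bases long and lies within 1 coding exon. The stretches were found by the spacing of these cysteines, so that shared spacing is no result, nor is most of the identity at their codons.
Gjb1: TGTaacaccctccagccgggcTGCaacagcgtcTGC
Gjb2: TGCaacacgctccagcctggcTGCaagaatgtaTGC
Gja1: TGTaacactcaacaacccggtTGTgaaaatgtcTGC
Gjd2: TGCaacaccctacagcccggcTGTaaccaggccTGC
The Gjb1 stretch lies at chrX:101384324-101384359 on the plus strand and the Gjb2 stretch at chr14:57100558-57100593 on the minus strand. The Gja1 stretch lies at chr10:56387706-56387741 on the plus strand and the Gjd2 stretch at chr2:114011797-114011832 on the minus strand. Gjb1 and Gjb2, the acinar pair, were identical at 29 of the 36 bases, or 80.6%. Gjb1 and Gjd2 were identical at 28 of the 36 bases, or 77.8%, so in this stretch the acinar connexin was nearly as close to the islet one as to its acinar partner. The whole coding regions were less alike in size, with 283 codons in Gjb1, 226 in Gjb2, 382 in Gja1 and 321 in Gjd2.

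In claudins the first extracellular loop lines the pore between cells, and its signature is shown for the claudins among the members. Capitals mark the codons of the leucine and tryptophan with the residue before them, and of the 2 cysteines. Each stretch has 48 coding bases within 1 exon. The stretches were found by the residues in capitals, so most of the identity at those codons is no result.
Cldn3-201: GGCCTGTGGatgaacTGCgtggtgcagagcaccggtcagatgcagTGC
Cldn10-201: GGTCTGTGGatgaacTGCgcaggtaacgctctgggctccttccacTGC
Cldn10-203: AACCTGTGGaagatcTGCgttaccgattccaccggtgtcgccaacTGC
Cldn2-201: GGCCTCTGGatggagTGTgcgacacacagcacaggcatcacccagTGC
Cldn1-201: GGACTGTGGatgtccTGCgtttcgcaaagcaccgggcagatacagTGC
The stretches lie at chr5:134986586-134986633 (Cldn3, plus strand), chr14:118788292-118788339 (Cldn10-201, plus strand), chr14:118855131-118855178 (Cldn10-203, plus strand), chrX:139808852-139808899 (Cldn2, plus strand) and chr16:26371435-26371482 (Cldn1, minus strand). Cldn3 and Cldn1, both known as sealing claudins, were identical at 39 of the 48 bases, or 81.2%. Cldn3 and Cldn2 were identical at 32 of the 48 bases, or 66.7%. The Cldn10 transcripts were identical to each other at 25 of the 48 bases, or 52.1%, although they belong to 1 gene, because each begins with an exon of its own.

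By the mean of the libraries, Gjb1 was the most abundant of the 10 genes and of the 4 connexins among them (ENSMUSG00000047797.10, chrX:101376378-101385629 on GRCm38, plus strand; each gene interval given here spans the exons, introns and UTRs). Its level was 13.56 TPM in replicate 2 and 10.51 TPM in replicate 1, or 12.0 ± 2.16 TPM (SD, n = 2 technical libraries). TPM is the share of a gene among all transcripts after correction for length, scaled to a fixed total. The length used, the effective length, is given per library and can differ between the libraries. The exact 95% Poisson intervals of the counts, carried to TPM, ran between 11.4 and 16.0 in replicate 2 and between 8.77 and 12.5 in replicate 1, so they overlap. They rest on 143 and 129 expected counts. As PCR copies are not separate molecules, every interval and limit here holds counting error and nothing else. Gjb1 ranked 2054 among all genes by mean TPM.

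Gjb2 (ENSMUSG00000046352.7, chr14:57098600-57104702, minus strand), the second acinar connexin, stood lower, at 2.95 TPM in replicate 2 and 4.13 TPM in replicate 1 (50 and 81 counts). Within a library, Gjb1 exceeded Gjb2 by 4.60 times in replicate 2 (95% interval 3.31 to 6.48) and by 2.54 times in replicate 1 (1.91 to 3.40). Both intervals lie above 1, so the order of the acinar pair was the same in each library. Gja1 (ENSMUSG00000050953.9, chr10:56377330-56402513, plus strand) encodes Cx43, a connexin of many tissues including vessels, muscle and fibroblasts. It reached 4.95 TPM (4.07 to 5.96) in replicate 2 and 7.08 TPM (6.09 to 8.19) in replicate 1, on 110 and 182 counts, and these intervals do not overlap. Marker genes of endothelium summed to 279 TPM in replicate 2 and 349 TPM in replicate 1, those of fibroblasts and stellate cells to 338 and 566 TPM, and those of smooth muscle to 119 and 173 TPM. The sums were lower in replicate 2 on the TPM scale, as Gja1 was, but not every marker was: Dcn, at 217.8 TPM in replicate 2 and 442.45 TPM in replicate 1, made up most of the fibroblast sum, while Plvap, at 126.62 and 98.57 TPM, was higher. The median log2 ratio after TMM scaling was -0.34 for the endothelial, -0.02 for the fibroblast and -0.59 for the smooth muscle list. Gja1 itself was at -0.24 after TMM scaling, with an interval of -0.60 to 0.11 that spans no change. The part of these cells in the Gja1 level was not tested.

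Gjd2 (ENSMUSG00000068615.4, chr2:114009601-114013619, minus strand), the connexin of beta cells, was measured at 2.43 TPM in replicate 2 and 2.57 TPM in replicate 1 (50 and 61 counts), or 2.50 ± 0.0990 TPM. Its intervals, 1.81 to 3.21 and 1.97 to 3.30 TPM, almost coincide. Beta cell markers summed to 21492 TPM in replicate 2 and 17132 TPM in replicate 1, nearly all of it insulin, and the beta cell factor Pdx1 was at 1.72 and 1.96 TPM. Gjd2 thus stood at 1.41 times Pdx1 in replicate 2 (0.942 to 2.12) and 1.31 times in replicate 1 (0.916 to 1.87), with intervals that include 1. Pdx1 was the only beta cell marker below Gjd2 in both libraries, and Nkx6-1 and Mafa were below it in replicate 1 only. Against Ins2, Gjd2 stood at 0.000135 times in replicate 2 and 0.000184 times in replicate 1. In the acinar compartment Gjb1 stood at 1.50 times the acinar factor Ptf1a in replicate 2 (1.15 to 1.98) and 1.33 times in replicate 1 (1.01 to 1.75). Ptf1a was the lowest acinar marker, and every other one stood above Gjb1 in both libraries, such as Bhlha15 at 29.12 and 25.81 TPM. Whether a connexin stood above or below its compartment thus depended on the marker taken. In a whole organ, fewer cells of a type and less RNA per cell cannot be told apart, so these ratios are between RNA pools and not between cells.

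**Figure D1:**
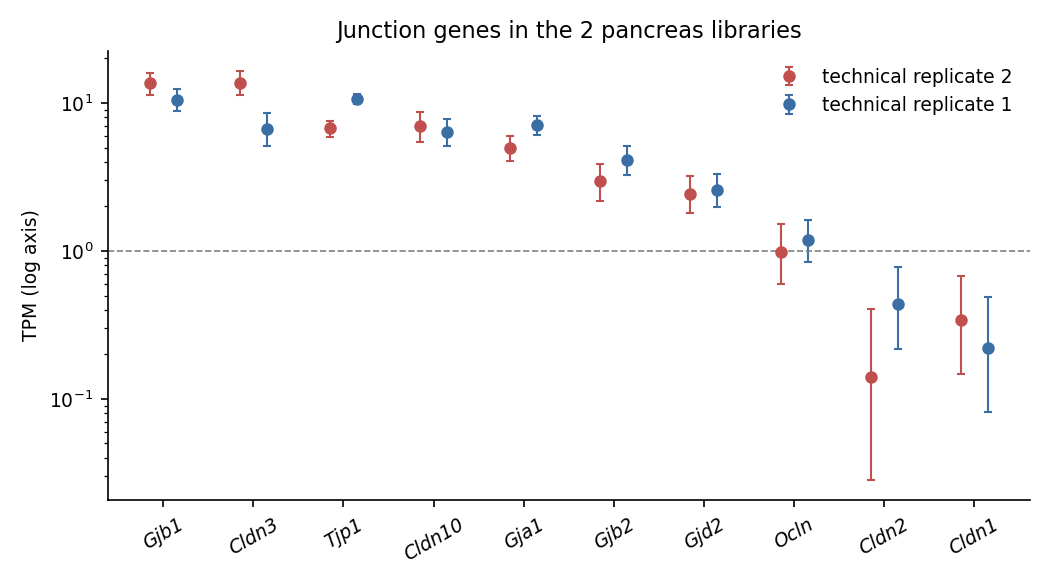
TPM of the 10 junction genes (log axis) in technical replicate 2 (red, left of each pair) and technical replicate 1 (blue), ordered by mean, with exact 95% Poisson intervals and a dashed line at 1 TPM. Gjb1 leads by the mean of the libraries, with Cldn3 just above it in replicate 2 and Tjp1 in replicate 1. The intervals of Cldn3, Tjp1 and Gja1 do not overlap between the libraries, and Cldn1 and Cldn2 lie below 1 TPM.

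The question set for the connexins was how the acinar genes compare with islet Gjd2. The sum of Gjb1 and Gjb2 was 6.79 times Gjd2 in replicate 2 (95% interval 4.96 to 9.47) and 5.70 times in replicate 1 (4.26 to 7.71), a mean of 6.25 ± 0.776 (SD, n = 2 technical libraries). Gjb1 alone was 5.58 times Gjd2 in replicate 2 (4.02 to 7.86) and 4.09 times in replicate 1 (2.99 to 5.64). All 4 intervals lie above 1, so Gjb1 RNA, with or without Gjb2, outweighed Gjd2 RNA in each library. The interval of the sum pools the counts of genes of different length and is approximate. Which cells made the Gjb1 and Gjb2 RNA was not tested. Gjb2 alone was 1.21 times Gjd2 in replicate 2 (0.804 to 1.83) and 1.61 times in replicate 1 (1.14 to 2.28). That order was therefore beyond counting error in replicate 1 and not in replicate 2. A two-sided Fisher's exact test of the counts by library gave p = 0.215 for Gjb1 with Gjd2, p = 0.297 for Gjb2 with Gjd2 and p = 0.668 for the sum. After Benjamini-Hochberg adjustment over the 3 exact tests these were 0.445, 0.445 and 0.668, and no difference between the libraries was detectable at this depth.

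Among all 20 connexin genes the members took most of the RNA. Connexins summed to 33.7 TPM in replicate 2 and 34.1 TPM in replicate 1. Gjb1 held 40.2% of this sum in replicate 2 and 30.9% in replicate 1, Gja1 14.7% and 20.8%, Gjb2 8.76% and 12.1%, and Gjd2 7.21% and 7.55%. The other connexins at 1 TPM or more in both libraries were 4: Gja4 and Gja5, both known from vessel walls, Gjc1, a connexin of vascular and cardiac muscle, and Gjb5, best known from skin and placenta. Gja4 had 4.33 TPM in replicate 2 and 2.33 TPM in replicate 1, Gjc1 had 1.67 and 3.30 TPM, Gja5 had 2.02 and 1.86 TPM, and Gjb5 had 1.10 and 1.76 TPM. Panx1, a pannexin whose channels open to the outside of the cell, had 1.08 TPM in replicate 2 and 1.39 TPM in replicate 1. No count was found in either library for 9 connexins, which at 3 counts per library allows levels of up to 0.137 to 0.582 TPM depending on gene length.

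**Figure D2:**
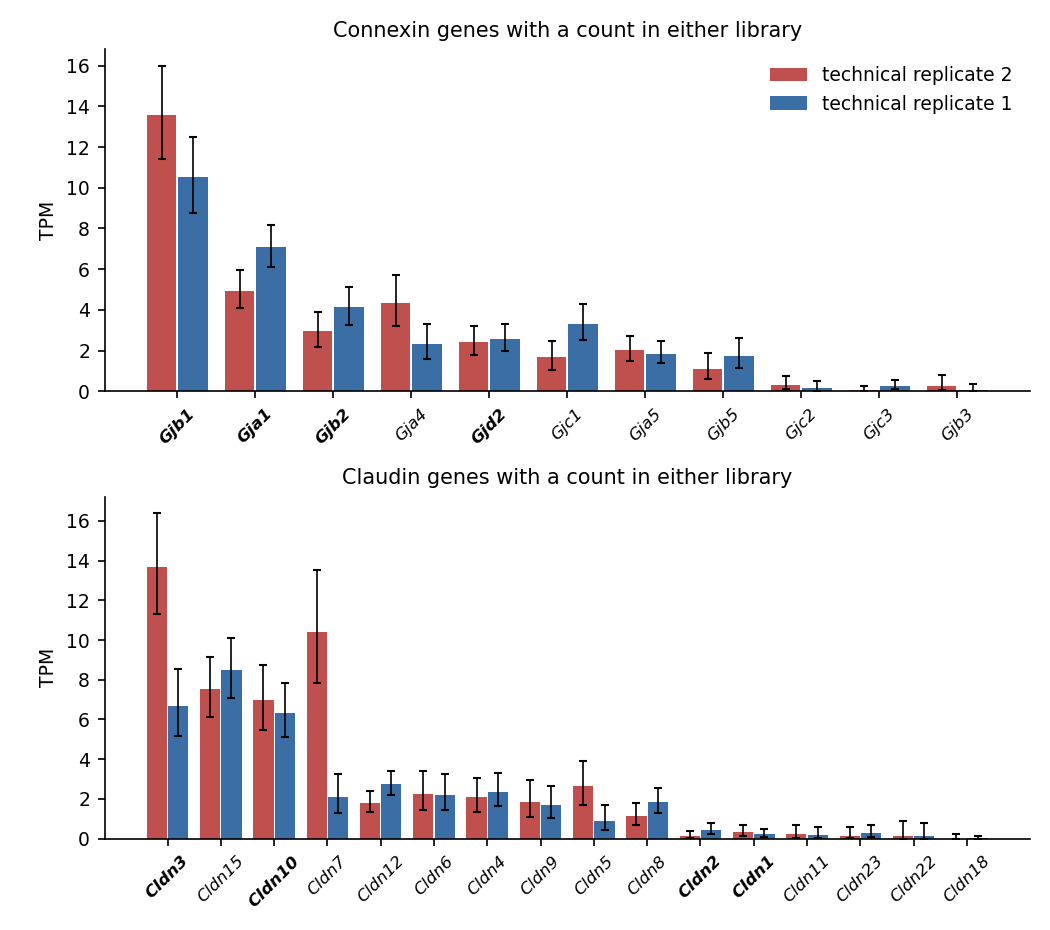
TPM of every connexin (upper plot) and claudin (lower plot) with a count in either library, in technical replicate 2 (red, left) and technical replicate 1 (blue), with exact 95% Poisson intervals and the genes described here in bold. Gjb1 stands above all other connexins in both libraries, while the order of the leading claudins Cldn3, Cldn15, Cldn10 and Cldn7 differs between them.

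Of the claudins, Cldn3 (ENSMUSG00000070473.4, chr5:134986214-134987472, plus strand), a sealing claudin of simple epithelia whose gene is a single exon, was the most abundant by the mean of the libraries. It was at 13.68 TPM in replicate 2, with an interval of 11.3 to 16.4, and at 6.68 TPM in replicate 1, with an interval of 5.15 to 8.53. The intervals do not overlap, and the mean was 10.2 ± 4.95 TPM. Cldn10 (ENSMUSG00000022132.11, chr14:118787908-118875489, plus strand), whose products form ion-selective pores, stood at 6.96 TPM in replicate 2 and 6.35 TPM in replicate 1. Its intervals overlap, and its mean was 6.65 ± 0.431 TPM. Cldn2 (ENSMUSG00000047230.6, chrX:139800828-139811386, plus strand), which forms pores for small cations and water in leaky epithelia, was at 0.14 TPM in replicate 2 from 3 counts and at 0.44 TPM in replicate 1 from 11 counts. Cldn1 (ENSMUSG00000022512.2, chr16:26356642-26371841, minus strand), a sealing claudin prominent in skin, was at 0.34 TPM in replicate 2 and 0.22 TPM in replicate 1, from 8 and 6 counts. By the deposited posterior mean TPM, another estimate from the same reads, the mean of Cldn2 was 1.34 in place of 0.290. The Cldn1 and Cldn2 intervals overlap in each library, and their order changed between the libraries.

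The claudin family of 23 genes summed to 51.3 TPM in replicate 2 and 36.7 TPM in replicate 1. Cldn3 held 26.7% of it in replicate 2 and 18.2% in replicate 1, and Cldn10 held 13.6% and 17.3%. Cldn15, a pore former known from the intestine, was at 7.51 TPM in replicate 2 and 8.49 TPM in replicate 1, and so was the leading claudin of replicate 1. Cldn7, a claudin of many simple epithelia, was at 10.38 TPM in replicate 2 and 2.12 TPM in replicate 1. These levels rest on 56 and 21 counts, with effective lengths of 716.1 and 1132.35 bases. Cldn12 had 1.80 and 2.74 TPM, Cldn6 had 2.26 and 2.22 TPM, and Cldn4 had 2.08 and 2.36 TPM. Cldn5, the main claudin of endothelium, had 2.63 TPM in replicate 2 and 0.91 TPM in replicate 1. In all 9 claudins reached 1 TPM in both libraries, 2 of them from the members, and 7 had no count in either, which allows up to 0.144 to 0.786 TPM.

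Ocln (ENSMUSG00000021638.8, chr13:100496507-100552718, minus strand) sat at the detection level used here, 1 TPM, with 0.98 TPM in replicate 2 and 1.19 TPM in replicate 1 (20 and 40 counts). Its mean was 1.08 TPM, and 1.82 by the posterior mean TPM. The effective length of Ocln was 2718.27 bases in replicate 2 and 3856.08 bases in replicate 1, so its TPM also depends on the split over transcripts. Tjp1 (ENSMUSG00000030516.10, chr7:65296165-65527781, minus strand) was at 6.73 TPM (5.93 to 7.60) in replicate 2 and 10.61 TPM (9.78 to 11.5) in replicate 1, again with no overlap of the intervals. It had the most counts of the members, 257 and 608, on the longest transcript, of 7049 bases. Its effective length was 5070.0 bases in replicate 2 and 6560.63 bases in replicate 1, a difference that the intervals do not hold. In replicate 2 its short transcripts Tjp1-203 and Tjp1-204 took 1.32 and 0.35 TPM, from 5.42 and 0.62 estimated counts. Cldn3 was 2.03 times Tjp1 in replicate 2 (1.62 to 2.54) and 0.630 times Tjp1 in replicate 1 (0.479 to 0.816), so the claudin and its scaffold changed places. In TPM order by mean, Gjb1 was followed by Cldn3, Tjp1, Cldn10, Gja1, Gjb2, Gjd2, Ocln, Cldn2 and Cldn1. Of the neighbours in that order, Gja1 with Gjb2, Gjd2 with Ocln, and Ocln with Cldn2 were separated beyond counting error in both libraries, and the other neighbours were not. In all, 7 of the 10 genes reached 1 TPM in both libraries, beside 46.4% of all 21474 protein-coding genes and 23.8% of all genes. Because the members were chosen with earlier results of these data known, no excess is read from these shares.

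Between the libraries, the scaled ratio of replicate 2 over replicate 1 was tested for the 8 members with a mean of 10 counts or more, while Cldn1 and Cldn2 fell below that filter. The ratio uses counts scaled by TMM, which sets the bulk of genes level, so it can differ from a ratio of TPM values. The ratio also does not use the effective length of each library, as TPM does. Each count pair went into an exact binomial test, two-sided, with Benjamini-Hochberg adjustment over 12452 genes. Calls needed both an adjusted p below 0.05 and a change of at least 2-fold. Of the members 1 was called higher in replicate 2 and none lower (at an adjusted p alone, without the 2-fold rule, Gjb1 and Tjp1 also passed). Over all genes tested, calls in replicate 2 were higher for 8.31% and lower for 4.00%. The median log2 ratio was 0.00 for the members to 2 decimals and -0.01 for all genes tested. The share of members called is thus near the background and is no result about the junction genes.

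The gene called was Cldn3, with 114 counts in replicate 2 and 64 in replicate 1 and a log2 ratio of 1.31 (interval 0.86 to 1.78; adjusted p = 4.24e-08, exact binomial test). Its transcript was the richest in G and C of the members, at 62.7%, and at 1259 bases it was the shortest leading transcript among them. Of the 432 genes tested whose leading transcript had a GC content of 60% up to 65%, 46.3% were called higher in replicate 2, and their median log2 ratio was 0.99. Once a smooth trend of the ratio on GC content and length, fitted over the genes tested, was taken off, the Cldn3 ratio was 0.01 (adjusted p = 1.00). With library totals in place of TMM it was 0.77 and did not reach 2-fold. The call of Cldn3 was thus lost under both of these settings.

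Gjb1 had a log2 ratio of 0.63 (0.28 to 0.99, adjusted p = 0.00178, exact binomial test) at a GC content of 56.3%. In the same test Gjb1 was at 0.23 after the trend (adjusted p = 0.372) and at 0.09 with library totals (adjusted p = 0.709). Tjp1 had a log2 ratio of -0.76 (-0.98 to -0.55, adjusted p = 9.12e-12) at 46.8%, and -0.49 after the trend (adjusted p = 3.86e-05), by the exact binomial test. Both stayed under 2-fold and were not called. With library totals Tjp1 was at -1.29 and Ocln at -1.04, and both were then called lower in replicate 2. Library totals shift every log2 ratio by -0.54 relative to TMM. Mitochondrial genes with their nuclear copies, together with Gm42418, Gm26917 and Lars2, took 52.6% of the counts in replicate 2 and 38.6% in replicate 1. With these left out of the totals Tjp1 was at -0.92 and Ocln at -0.66, and neither was called.

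The other 5 members tested were not called. Ocln was at -0.50 (adjusted p = 0.376), Gja1 at -0.24 (adjusted p = 0.296) and Gjb2 at -0.21 (adjusted p = 0.578) in the exact binomial test. Gjd2 was at 0.20 (interval -0.37 to 0.76; adjusted p = 0.649) and Cldn10 at 0.24 (-0.23 to 0.70; adjusted p = 0.452). With library totals these last turned to -0.34 and -0.30, so neither has a direction that held under every scaling. The interval of Gjd2 leaves room for a change of over 1.5-fold, which its 50 and 61 counts cannot show.

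**Figure D3:**
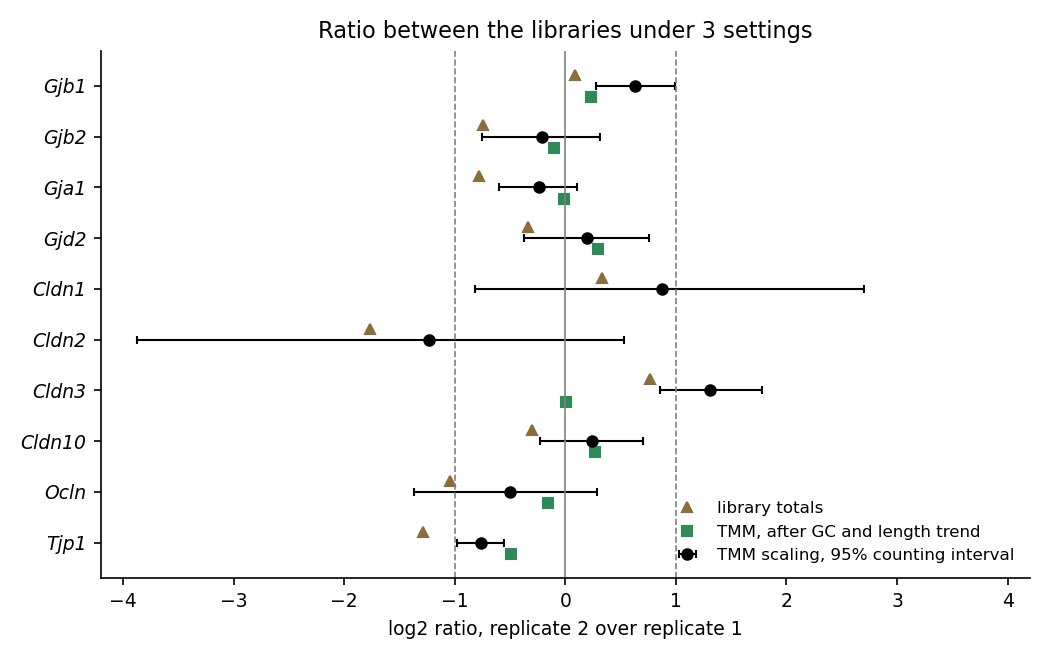
Log2 ratio of replicate 2 over replicate 1 for each member with TMM scaling (black, with exact 95% intervals), with library totals (brown triangles) and with the GC and length trend taken off (green squares, the 8 members tested); dashed lines mark 2-fold. Only Cldn3 lies past 2-fold among the tested members with TMM, at 1.31, and its green square lies at 0.01.

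**Figure D4:**
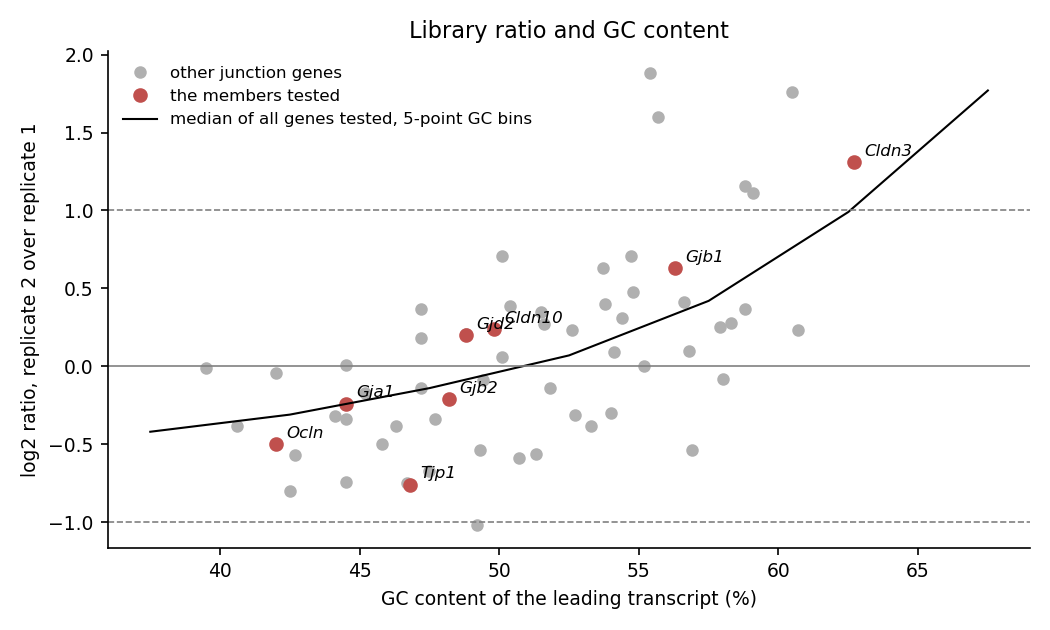
Log2 ratio of replicate 2 over replicate 1 against the GC content of the leading transcript for the members tested (red) and the other junction genes tested that have a GC value (grey), with the median of all genes tested in bins of 5 percentage points (black line). The median runs between -0.42 at a GC content of 35% up to 40% and 1.77 at 65% up to 70%, and Cldn3 lies at the high end.

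The tables also split the counts of a gene over its annotated transcripts. Gjb2, Gja1, Gjd2, Cldn1 and Cldn3 had 1 transcript each in the tables, and the posterior SD of the gene count was 0 for all 10 members. The Cldn10 counts were split over Cldn10-201 and Cldn10-203. Cldn10-201 begins with an exon 66361 bases upstream of the one that begins Cldn10-203, and both first exons join the same second exon. The sequences show the last 30 bases of each first coding exon in lower case and the first 15 of the shared second exon in capitals.
Cldn10-201: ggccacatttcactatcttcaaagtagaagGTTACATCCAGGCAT
Cldn10-203: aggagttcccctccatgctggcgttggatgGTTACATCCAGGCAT
The first exons end at position 118788370 and position 118855209 of chromosome 14, and the second begins at position 118861696. These transcripts encode the forms known as claudin-10a, a pore for anions, and claudin-10b, a pore for cations. Cldn10-201, the form 10a, held 55.6% of the TPM of the gene in replicate 2 and 36.9% in replicate 1, or 46.2% ± 13.3. Cldn10-203, the form 10b, held 44.4% in replicate 2 and 63.1% in replicate 1, and the remaining transcript was at 0. The estimated counts were 28.98 and 20.15 for Cldn10-201 and 46.02 and 68.85 for Cldn10-203, with posterior SDs of 7.06 to 8.72 counts. Both transcripts were thus given counts in each library, and which of them led in TPM differed between the libraries. The transcripts, of 1148 and 2128 bases, also differ in length beyond their first exons. The split therefore does not rest on the first exons alone, and is no direct measure of 10a against 10b. By estimated counts, which are not corrected for length, Cldn10-203 led in both.

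Tjp1 was split mainly over Tjp1-202 and Tjp1-201. Tjp1-202 contains a coding exon of 240 bases, or 80 codons, that Tjp1-201 skips (chr7:65314093-65314332, minus strand), known as the alpha exon of ZO-1. The sequence shows the last 15 coding bases before it in lower case and its first 45 bases in capitals.
Tjp1-202: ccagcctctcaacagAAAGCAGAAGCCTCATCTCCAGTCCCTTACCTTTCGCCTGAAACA
Of the TPM of Tjp1-202 and Tjp1-201 together, the form with the exon held 67.3% in replicate 2 and 65.6% in replicate 1, or 66.5% ± 1.22. The transcripts also differ by 60 coding bases at another exon and in their ends, so the split does not rest on the alpha exon alone. Of the whole gene, Tjp1-202 held 50.6% in replicate 2 and 65.6% in replicate 1, and Tjp1-201 held 24.6% and 34.4%. A processed transcript of 699 bases, Tjp1-203, was given 19.6% of the TPM of the gene in replicate 2 from 5.42 estimated counts, and 0 in replicate 1.

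The splits of Gjb1 and Ocln differed widely between the libraries. Gjb1-201, Gjb1-202 and Gjb1-203 encode the same protein and differ in their first exons. They held 26.3%, 36.7% and 37.0% of the gene in replicate 2, against 85.8%, 0% and 14.2% in replicate 1, with posterior SDs of 15.8 to 25.37 counts on gene totals of 143 and 129, so no order of the Gjb1 transcripts can be given. Ocln-202, the longest occludin transcript, held 26.5% in replicate 2 and 98.3% in replicate 1, from 7.64 and 39.71 estimated counts with posterior SDs of 2.15 and 3.37. Ocln-201 and Ocln-203 held the rest.

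**Figure D5:**
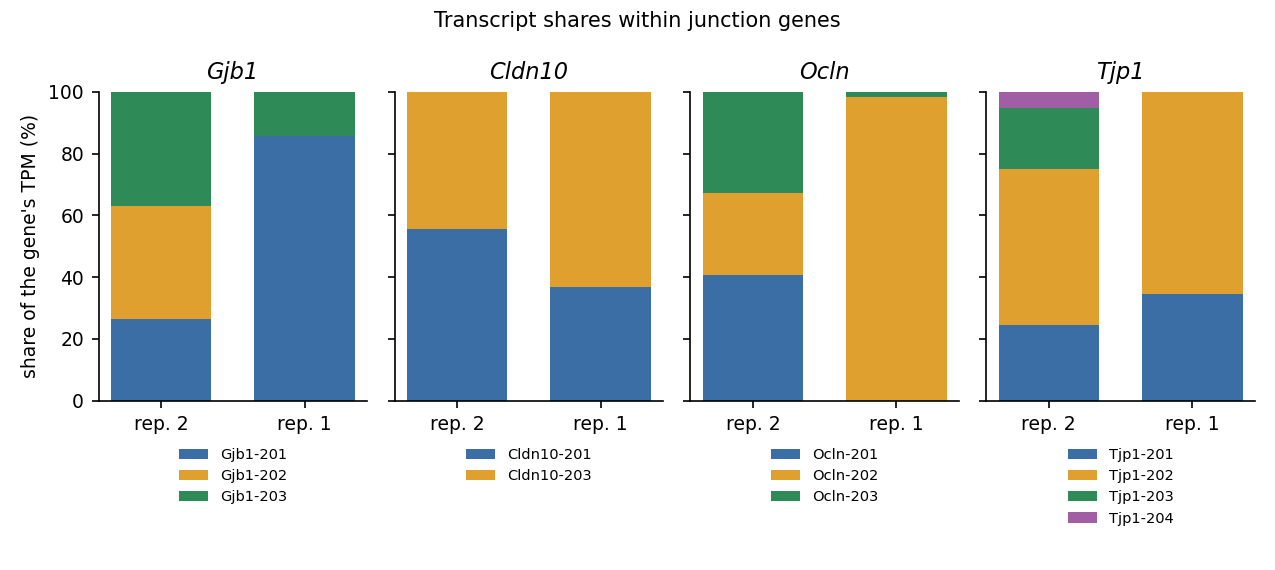
Share of the TPM of each gene held by its transcripts, in technical replicate 2 (left bar) and technical replicate 1 (right bar), for the 4 members with more than 1 transcript above 0. The Cldn10 and Tjp1 splits show the same transcripts in both libraries, with Tjp1-203 and Tjp1-204 added in replicate 2, while the Gjb1 and Ocln splits differ widely.

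The rest of the junction machinery was measured beside the members. Of 12452 genes tested, 8.31% were called higher and 4.00% lower with TMM, and 342 higher and 2603 lower with library totals. No count of calls below is read as a result about a group. Of 11 other membrane proteins of tight junctions, all 11 reached 1 TPM in both libraries, and 1 was called higher in replicate 2. Their leaders were Esam, an adhesion molecule of endothelium, at 24.29 TPM in replicate 2 and 20.71 TPM in replicate 1, and F11r, the junctional adhesion molecule JAM-A of epithelia and endothelia, at 14.05 and 22.15 TPM. The log2 ratio of F11r was 0.06, with effective lengths of 2115.86 bases in replicate 2 and 1555.39 bases in replicate 1. Jam2 and Jam3, which encode related adhesion molecules, had 10.79 and 18.99 TPM and 7.82 and 7.56 TPM. The gene called was the polarity gene Crb3, at 10.61 TPM in replicate 2 and 4.97 TPM in replicate 1 (log2 ratio 1.60, adjusted p = 6.64e-07, exact binomial test, and 1.20 after the trend). With library totals Crb3 was still called, at 1.06, and 2 genes were called lower, Jam2 at -1.03 and Ildr2 at -1.08. With an assumed dispersion of 0.1 Crb3 was not called.

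Of 18 scaffold and polarity genes, 15 reached 1 TPM in both libraries, 16 were tested, and none was called in either direction with TMM. With library totals 2 were called lower in replicate 2, Ybx3 at -1.08 and Pard6g at -1.56, and Pard6g stayed so, at -1.19, with the dominant genes left out of the totals. Ybx3, whose product binds ZO-1, had 19.64 TPM in replicate 2 and 35.90 TPM in replicate 1. Sympk had 9.45 and 12.82 TPM, Cgnl1, which encodes paracingulin, 8.44 and 10.05 TPM, Mpdz 8.21 and 6.56 TPM, and the polarity gene Pard3 3.52 and 7.83 TPM. The log2 ratio of Pard3 was -0.38, with effective lengths of 2602.29 bases in replicate 2 and 1841.37 bases in replicate 1.

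Of 16 genes of adherens junctions and desmosomes, 13 reached 1 TPM in both libraries, 2 were called higher in replicate 2 and none lower. Over all genes tested, 8.31% were called higher and 4.00% lower. Ctnnb1, which encodes beta-catenin, was the most abundant, at 37.94 TPM in replicate 2 and 37.80 TPM in replicate 1. Ctnna1 had 15.50 and 19.88 TPM, Afdn 15.16 and 16.20 TPM, Ctnnd1 9.69 and 18.32 TPM, and Jup 13.66 and 13.11 TPM. The genes called were the desmosomal plaque gene Pkp3 (log2 ratio 1.28, adjusted p = 0.000685) and the adhesion gene Nectin1 (1.11, adjusted p = 0.0320), both by the exact binomial test. After the trend Nectin1 was at 0.50 and not called, and Pkp3 has no value because no GC content was found for it. With library totals the calls of this group turned to 0 higher and 6 lower: Cdh1, Cdh2, Nectin3, Dsg2, Dsc2 and Pkp2, at log2 ratios between -1.34 and -1.09. In that setting 2603 of all 12452 genes tested were called lower. Pkp3 was then at 0.74 and Nectin1 at 0.57, and neither was called.

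Among the other connexins and claudins the genes called higher in replicate 2 were Gja4 (log2 ratio 1.16, adjusted p = 0.00205), Cldn5 (1.76, adjusted p = 0.00230) and Cldn7 (1.88, adjusted p = 5.67e-07, all by the exact binomial test), and none was called lower with TMM. The called genes were among 4 connexins and 8 claudins tested, beside 8.31% called higher over all genes tested. After the trend Cldn7 stayed past 2-fold at 1.49, while Gja4 at 0.49 and Cldn5 at 0.84 did not. With an assumed dispersion of 0.1 none of these genes was called. At a mean of 50 counts or more none of them was tested. With library totals Cldn7 and Cldn5 were still called, at 1.34 and 1.23, Gja4 was not, at 0.63, and Gjc1 was called lower, at -1.28. The median log2 ratio of the junction groups other than the members lay between -0.16 and 0.25.

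The markers of the tissue were those of pancreas. Acinar markers summed to 113138 TPM in replicate 2 and 104274 TPM in replicate 1, and all 10 reached 1 TPM in both. Duct markers summed to 2145 and 1517 TPM, with 9 of 11 at 1 TPM or more, alpha cell markers to 1672 and 4364 TPM with 5 of 6, and beta cell markers reached it in 8 of 9, with Mafa at 18 counts in replicate 2 and 0 in replicate 1. All markers of endothelium, fibroblasts, smooth muscle and mesothelium reached 1 TPM, the mesothelial ones summing to 64.1 and 67.2 TPM. Leukocyte markers summed to 92.7 and 100 TPM, and neuron and glia markers to 8.40 and 16.6 TPM. Hepatocyte markers summed to 96.0 and 114 TPM, with 1 of 5 at 1 TPM or more, Ttr, which islet alpha cells also express. Alb had 8 counts in replicate 2 and 10 in replicate 1, and Fgb had none in either. Intestinal markers summed to 10.0 and 9.52 TPM, with 2 of 5 at 1 TPM or more: Lgals4 at 6.74 TPM in replicate 2 and 7.14 TPM in replicate 1, and Vil1 at 2.67 and 2.05 TPM. Cdx2, a defining factor of intestine, had no count in either library.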

How the data were processed

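Polyadenylated RNA of 1 mouse pancreas was measured in 2 technical libraries of 9797569 (replicate 2) and 9441559 (replicate 1) expected counts. The build, mm10 with GENCODE M4, is that of the deposited README files; neither aligner nor quantifier is named in the sources used here. Deposited columns, per the file headers, are expected counts, TPM, FPKM, a posterior mean TPM (entered as a signal) and the percent of each isoform. FPKM and posterior means served as alternatives, and transcript TPM gave the isoform shares. GENCODE M21, on the same assembly (GRCm38), supplied names and positions for 42462 of 43346 genes.

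Expected counts were rounded and scaled by TMM (edgeR 4.0.16, R 4.3.3). With 1 library a side no model has residual degrees of freedom, so genes with a mean of 10 or more counts were tested by an exact binomial test given the sum, with 0.5 added for the log2 ratio and Benjamini-Hochberg adjustment (scipy 1.17.1). Intervals are exact at 95%, save that for the sum of Gjb1 and Gjb2, which pools their counts and is approximate. A count of 0 was bounded at 3 counts. The trend on GC and length was fitted with mgcv 1.9.3. Alternatives included library totals, DESeq2 1.42.0 size factors and assumed dispersions of 0.01 and 0.1. The test was tried on simulated counts that held counting error only. That trial cannot show how the test behaves under a GC trend or added variance. All members, the 5 most abundant genes of each other junction list and every called gene are named. The members and lists were chosen with earlier results of these data known.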

Additional observations from a re-analysis of the deposited data

How the results depend on the processing

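Of the members, 2 were called between the libraries with library totals (both lower, none higher), 0 after the GC and length trend and 0 with an assumed dispersion of 0.1, against 1 in the analysis reported; the other alternatives gave 1. Gjd2 reversed to -0.34 and Cldn10 to -0.30 with library totals, which shift all log2 ratios by -0.54. Over all genes, 1533 were called as reported, 2945 with library totals, 649 at a mean of 50 counts or more, 975 after the trend and 45 with an assumed dispersion of 0.1. The split of these calls was 1035 higher and 498 lower as reported, 342 and 2603 with library totals, 733 and 875 with totals that leave out Gm42418, Gm26917, Lars2, the mitochondrial genes and copies of these in the nucleus, and 506 and 469 after the trend. Gjb1 over Gjd2 was 2.49 and the sum over Gjd2 was 3.65 as raw count ratios, which do not correct for length. Detected members numbered 7 or 8 in single libraries, 8 at 0.5 TPM, 7 at 2 TPM and 9 by posterior mean TPM. Leaving those dominant genes out of TPM multiplied levels by 1.79 in replicate 2 and 1.87 in replicate 1. The Cldn10-203 share was 69.4% by estimated counts, against 53.8% by TPM. No paired analysis was possible because the libraries form 1 group. Genes under about 10 counts, here Cldn1 and Cldn2, cannot be compared at this depth, and 1 animal gives no biological spread.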
